A study of Drosophila melanogaster with 9 samples.

Results

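The genes described here encode the subunits of the 26S proteasome of Drosophila melanogaster. They were chosen by name, as every probe set with a single gene symbol beginning with Prosalpha, Prosbeta, Rpn or Rpt followed by a number. The rule fits 48 genes in the RefSeq annotation, and 40 of these had such a probe set, 1 each, among 11981 genes with a named probe set. Of the 40 genes, 26 are canonical subunits and 14 are paralogs, whose names add an R or a T to the name of a canonical subunit. The other 8 genes, Prosalpha1, Prosalpha1R, Prosbeta1, Rpn9, Rpn10, Rpt1, Rpt6 and Rpt6R, were not analysed here.

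The measurements come from Affymetrix expression arrays of metastatic intestinal tumors kept by serial allograft, a culture in which a piece of tumor is grown in the abdomen of an adult fly and passed on to new hosts. All tumors derived from Apc-Ras-Sna clones, induced in the adult midgut with hsp70-flp and the MARCM system, which marks the progeny of single recombined cells. These clones lack Apc2 (allele N175K) and Apc (allele Q8) and carry UAS-Ras V12, UAS-Sna and UAS-GFP under esg-Gal4, a driver active in intestinal progenitor cells, so every group shares the whole genotype and none is a wild-type or untransformed control. The 3 groups are transplantation round 1 (T1), 2 (T2) and 10 (T10) into young adult hosts, with 3 arrays each and 9 in all, started from abdominal macrometastases of 3 flies. Samples of 1 round are labelled as technical replicates, so the p-values and intervals may gauge technical spread alone.

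The proteasome degrades proteins that carry ubiquitin chains. Its core particle is a barrel of alpha rings, which gate the entry, and beta rings, which hold the proteolytic sites. Its regulatory particle caps the barrel: the base carries the ATPases (Rpt) that unfold the substrate together with scaffold subunits and ubiquitin receptors (Rpn1, Rpn2, Rpn13), and the lid carries the deubiquitinase Rpn11 among structural subunits. Cells make the subunits in fixed proportions, and in animals a shared transcription factor, CncC in flies, is known to raise their genes together when proteasome activity is short.

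One array stood apart from its round before any proteasome gene was considered. T2 replicate 3 correlated with the 3 T10 arrays at r = 0.964 to 0.984 over all probe sets, but with the other T2 arrays at r = 0.932 and 0.95, so the counts of calls by limma and the canonical medians are also given without it. The progenitor list (6 of 6 markers measured, including esg, Sox21a and the transgene sna) averaged log2 values of 9.45 to 10 in T1, 8.80 to 10.4 in T2 and 7.46 to 8.94 in T10 arrays. Its members did not move together: Delta, a stem cell marker, had 10.43, 11.05 and 10.58 in T10, against 7.24, 6.72 and 8.03 in T1, while esg, sna and Sox21a were mostly lower in T10. The tracheal list (5 of 6 measured) averaged 6.42 to 7.63 in T1, 6.81 to 9.66 in T2, the highest being replicate 3, and 9.45 to 10 in T10 arrays. Of its members verm, serp and kkv were higher in all T10 than in all T1 arrays, the receptor gene btl was lower, at 7.69 to 8.45 in T10 and 8.99 to 10.58 in T1, and dysf lay between 5.29 and 5.68 on all 9 arrays. Fat body markers (7 of 7) averaged 5.97 to 6.58 in T1, 6.38 to 8.29 in T2 and 5.92 to 6.24 in T10 arrays, with the highest value in T2 replicate 2. Yp1, Yp2, Yp3 and apolpp were highest there, while FASN1 lay between 11.84 and 12.20 and Fbp1 between 4.50 and 4.97 on all 9 arrays. Muscle markers (5 measured) averaged 4.80, 4.97 and 6.49 in T1, 4.76, 6.96 and 4.98 in T2 and 5.70, 4.92 and 5.93 in T10 replicates 1 to 3. Their member Act88F lay between 4.69 and 5.06 on all 9 arrays. In bulk samples such as these, fewer cells of a type and less RNA per cell cannot be told apart.

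The canonical subunits were bright on these arrays and the paralogs mostly dim. Ranked by mean log2 value among the 18769 probe sets tested, the 26 canonical subunits lay at percentiles 88.1 to 99.2, with a median of 95. The 14 paralogs lay at percentiles 1.45 to 54.6, with a median of 17.9. These ranks depend on the probes as well as on the RNA and are given as a description only. Replicate spread was modest for the canonical subunits, with a median residual SD within rounds of 0.176 log2 units, against 0.21 over all probe sets. Over the 9 arrays the typical canonical subunit ranged over 0.51 log2 units, from 0.19 for Prosbeta3 to 0.91 for Rpn3, while the median range of all probe sets was 0.72.

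In T10 against T1 no proteasome gene passed the test. With limma on all 9 arrays and Benjamini-Hochberg adjustment over all probe sets, 0 of 40 members had an adjusted p under 0.05, while 0.0107% of all probe sets (2 of 18769) did. With T2 left out of the fit altogether, limma called 5.98% of all probe sets (1122) and again 0 of 40 members. At an unadjusted p under 0.05 in the 9-array fit, 1 of 40 members passed, the paralog Rpn13R, against 20.8% of all probe sets.

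The canonical changes were small on these arrays. Their median log2 change, T10 minus T1, was 0.05, with 14 values above 0 and 12 below, against a median of -0.01 over all probe sets. Single genes ran from -0.24 (Rpn11) to 0.29 (Prosalpha3), on a linear scale from 0.845-fold to 1.22-fold. The 95% intervals of the 26 changes all lay between -0.54 and 0.73, inside a change of 1 log2 unit in either direction. They rest on arrays labelled as technical replicates, so they may not cover biological spread. Adjusted p-values of the 26 genes ran from 0.312 to 0.994 (limma, 9 arrays).

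**Figure D1:**
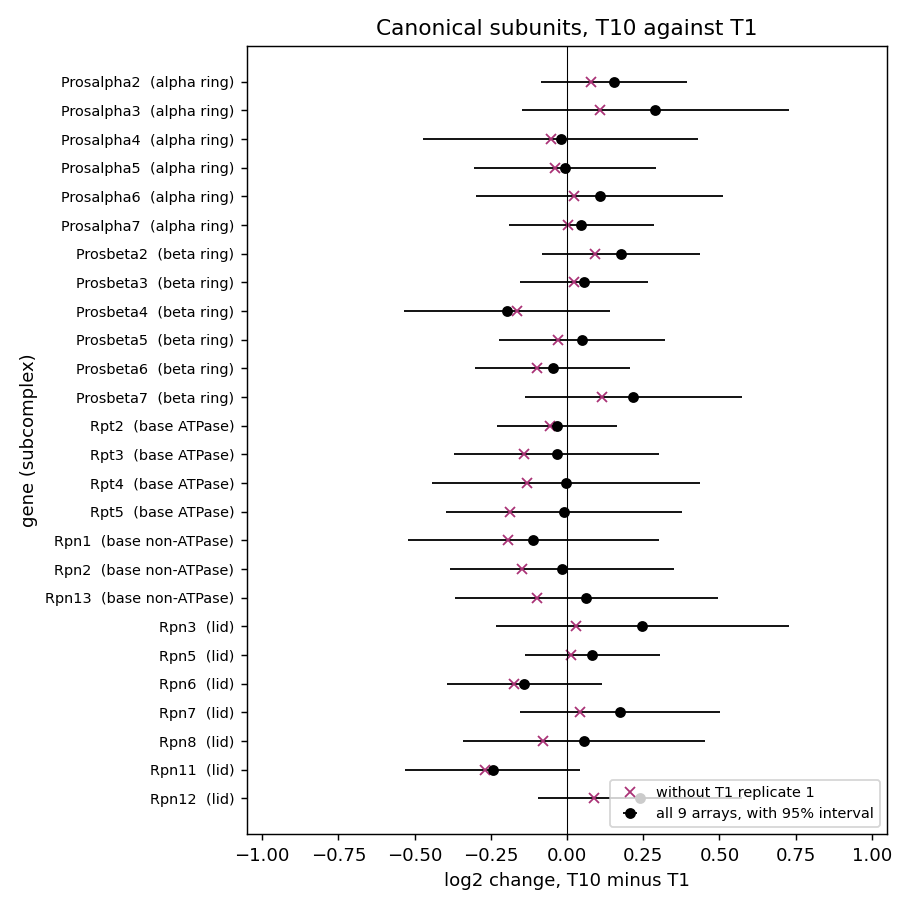
Log2 change of each of the 26 canonical subunits, T10 minus T1 (x axis), by gene and subcomplex (y axis). Black points with bars are the 9-array fit with its 95% interval and crosses the change without T1 replicate 1; every interval spans 0 and none reaches a change of 1.

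Among the proteolytic subunits, Prosbeta2, which carries the trypsin-like site, had log2 values of 12.33, 12.60 and 12.56 in T1, 12.68, 12.64 and 12.45 in T2 and 12.77, 12.65 and 12.60 in T10 replicates 1 to 3. T1 replicate 1 was its lowest array, and the T10 arrays overlapped the T1 arrays at a value of 12.60. Its change from T1 to T10 was 0.18 (SE 0.112, adjusted p = 0.418, limma). Prosbeta5, which carries the chymotrypsin-like site, had values of 11.44, 11.70 and 11.66 in T1, 11.70, 11.70 and 11.39 in T2 and 11.67, 11.63 and 11.65 in T10. All 3 T10 arrays lay inside the range of the other 6, and the change from T1 to T10 was 0.05 (SE 0.118, adjusted p = 0.855, limma). The third proteolytic subunit, Prosbeta1, was not analysed here.

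The other core subunits named by rule had a structural or gating role. Prosalpha3, whose yeast counterpart helps to close the gate of the barrel, had 10.22, 10.74 and 10.80 in T1, 10.97, 10.77 and 10.53 in T2 and 11.07, 10.79 and 10.77 in T10. Its highest array was T10 replicate 1 and its lowest T1 replicate 1, with overlap between the rounds. The change of 0.29 from T1 to T10 (SE 0.188, adjusted p = 0.431, limma) became 0.11 without T1 replicate 1. Prosbeta7, a beta ring subunit without a proteolytic site, had 11.55, 11.84 and 11.88 in T1, 11.93, 11.88 and 11.67 in T2 and 12.25, 11.84 and 11.83 in T10, so that T10 replicate 1 stood above the other 8 arrays. Its change from T1 to T10 was 0.22 (SE 0.154, adjusted p = 0.472, limma). Prosbeta4, also without a proteolytic site, had 11.39, 11.53 and 11.06 in T1, 11.26, 11.12 and 10.92 in T2 and 11.21, 11.15 and 11.03 in T10. Here T1 replicates 1 and 2 were the highest arrays, T1 replicate 3 lay among the T2 and T10 arrays, and the change from T1 to T10 was -0.20 (SE 0.146, adjusted p = 0.494, limma). Prosbeta6, another such subunit, had 12.02, 12.22 and 12.14 in T1, 12.26, 12.20 and 12.02 in T2 and 12.22, 11.98 and 12.04 in T10, with overlap between all rounds and a change of -0.05 (SE 0.110). Prosalpha5, an alpha ring subunit, had 11.14, 11.38 and 11.10 in T1, 11.23, 11.39 and 10.99 in T2 and 11.13, 11.24 and 11.23 in T10. Its change was the smallest of the core, -0.0067 (T10 mean 11.20, SD 0.0608, against T1 mean 11.21, SD 0.151, n = 3 each).

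In the regulatory particle the lid gave both the highest and the lowest changes. Rpn11, the deubiquitinase that removes ubiquitin chains from the substrate, had 11.65, 11.86 and 11.59 in T1, 11.78, 11.63 and 11.40 in T2 and 11.53, 11.43 and 11.41 in T10. Every T10 array lay below every T1 array, while the T2 arrays spanned nearly the range of both. The change of -0.24 from T1 to T10 (SE 0.124, 95% interval -0.53 to 0.04) had the smallest adjusted p of the canonical subunits, 0.312 (limma). Rpn6, which bridges the lid and the core, had 12.22, 12.36 and 12.28 in T1, 12.35, 12.35 and 12.07 in T2 and 12.20, 12.03 and 12.21 in T10. Its T10 arrays also lay below its T1 arrays, with 12.21 and 12.22 as the nearest values, and the change was -0.14 (SE 0.110, adjusted p = 0.519, limma).

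Other lid subunits with a structural role lay on the positive side. Rpn3 had 10.75, 11.31 and 11.49 in T1, 11.60, 11.36 and 11.25 in T2 and 11.66, 11.36 and 11.27 in T10. Rpn12 had 10.05, 10.47 and 10.53 in T1, 10.71, 10.47 and 10.47 in T2 and 10.66, 10.59 and 10.52 in T10. For both, T1 replicate 1 was the lowest of the 9 arrays and lay well below the next. The changes from T1 to T10 were 0.25 for Rpn3 (SE 0.208) and 0.24 for Rpn12 (SE 0.144), with adjusted p-values of 0.553 and 0.392 (limma). Without T1 replicate 1 they were 0.03 for Rpn3 and 0.09 for Rpn12. Rpn7 had 10.26, 10.62 and 10.68 in T1, 10.65, 10.60 and 10.41 in T2 and 10.86, 10.61 and 10.61 in T10, again with T1 replicate 1 the lowest, and a change of 0.17 (SE 0.142), or 0.04 without that array.

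The base lay closer to 0. The 4 ATPases Rpt2, Rpt3, Rpt4 and Rpt5 had changes of -0.03 to -0.0033 from T1 to T10. Rpt4, with the smallest change of the regulatory particle, had 10.88, 11.38 and 11.15 in T1, 11.36, 11.17 and 10.80 in T2 and 11.36, 11.00 and 11.04 in T10. Its SD within rounds was 0.25 in T1, 0.285 in T2 and 0.197 in T10, far more than its change of -0.0033. Rpt5 had 10.47, 11.07 and 10.93 in T1, 11.07, 10.99 and 10.73 in T2 and 10.89, 10.80 and 10.75 in T10, a change of -0.12 against T2 (SE 0.168) or -0.22 without T2 replicate 3, with the T10 arrays inside the range of the T1 arrays. Rpn1, a scaffold that docks shuttle receptors, had 10.82, 11.20 and 10.94 in T1, 11.09, 11.01 and 10.50 in T2 and 11.01, 10.84 and 10.78 in T10, a change of -0.11 (SE 0.177, adjusted p = 0.777, limma).

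The canonical subunits shared their position on single arrays. Each gene was set against its own mean over the 9 arrays, and the median of these deviations was taken over the 26 genes. It was -0.22, 0.11 and 0.02 in T1 replicates 1 to 3, 0.15, 0.06 and -0.18 in T2 replicates 1 to 3, and 0.11, -0.01 and -0.08 in T10 replicates 1 to 3. T1 replicate 1 and T2 replicate 3 were low and T2 replicate 1 was high, and the rounds overlapped throughout. T1 replicate 1 held the lowest value of 14 of the 26 genes and T2 replicate 3 that of another 10. In T2 replicate 3 all 26 lay below their own mean, in T1 replicate 1 24 did, and in T2 replicate 1 all 26 lay above it.

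**Figure D2:**
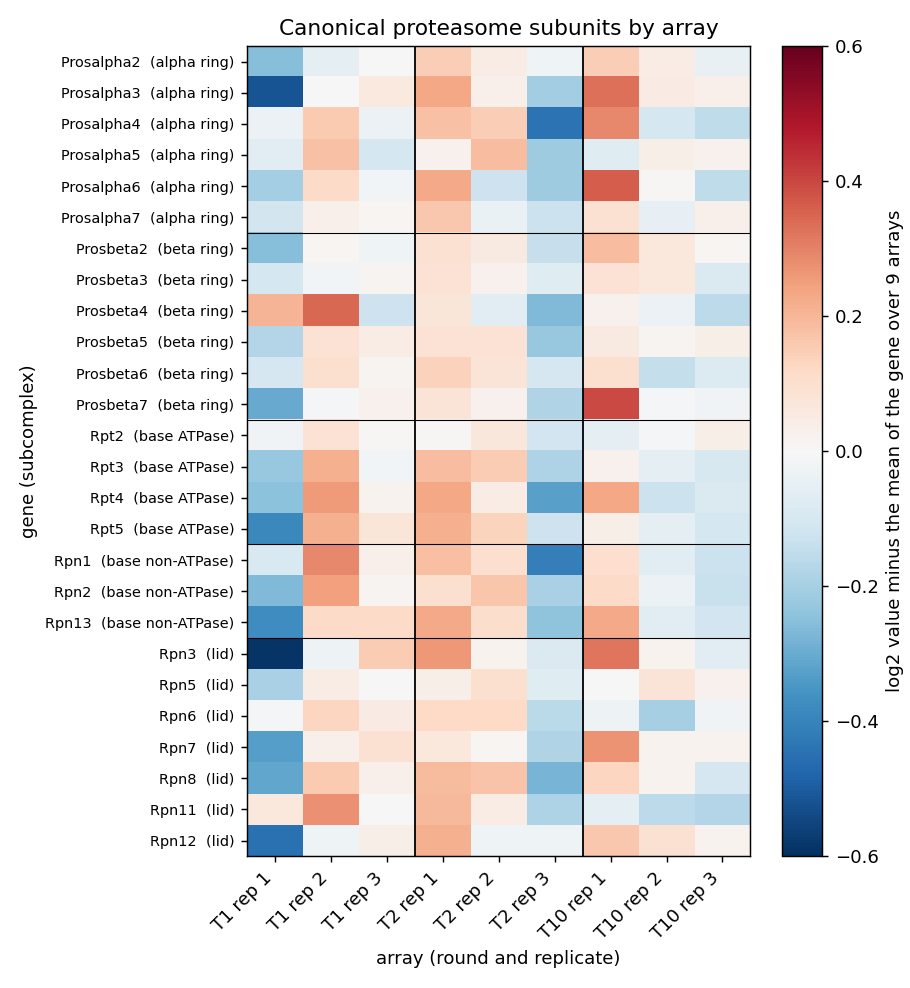
Log2 value of each of the 26 canonical subunits minus its mean over 9 arrays (colour, blue below and red above), by array (x axis, T1, T2 and T10) and gene with its subcomplex (y axis). The columns T1 replicate 1 and T2 replicate 3 are mostly blue, with 24 and 26 genes below their mean.

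The spread between arrays of a round was larger than the differences between rounds. The mean of the array medians was -0.03 in T1, 0.0098 in T2 and 0.0063 in T10, and their pooled SD within rounds was 0.149. The lists of related genes described below were low in T2 replicate 3, but not all of them in T1 replicate 1. The list of p97 and cofactors, which hand substrates to the proteasome, lay at -0.08 in T1 replicate 1 and -0.20 in T2 replicate 3. On the latter 9 of its 9 genes were below their own mean, and 9 of 9 were above it in T2 replicate 1. In the same order, shuttle receptors lay at -0.08 and -0.11, assembly chaperones at 0.01 and -0.08, and proteasome-bound factors at 0.0022 and -0.10. The CncC list lay at 0.03 and -0.08, and ubiquitin and its enzymes at 0.16 and -0.10. The median of all probe sets lay at 0.02 in T1 replicate 1 and -0.05 in T2 replicate 3, vacuolar proton ATPase genes at 0.05 and -0.16, and mitochondrial ribosomal proteins at 0.07 and -0.09. Cytoplasmic ribosomal proteins (41 genes) lay at 0.0089 and 0.03, but with a median percentile of 99.6 and a median range of 0.12 log2 units over the 9 arrays they give no scale for a shift. The 3' minus 5' difference of the actin control probe sets, a sign of RNA degradation or truncated copying, was 0.60 in T1 replicate 1 and 0.54 in T2 replicate 3, the lowest of a range that reached 0.69. On the GAPDH controls it was 0.36 and 0.35, inside a range of 0.11 to 0.44. Whether cell makeup, RNA handling or amplification plays a part in the position of these arrays was not tested.

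**Figure D3:**
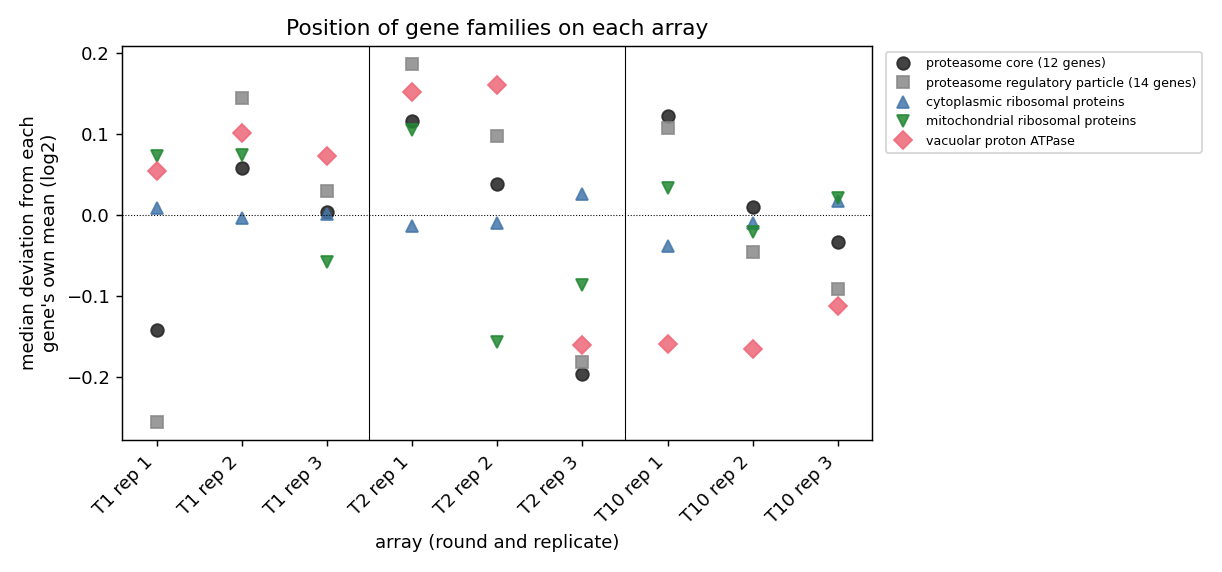
Median deviation from each gene's own mean (y axis, log2) on each of the 9 arrays (x axis) for the proteasome core and regulatory particle and 3 comparison families. Proteasome points are lowest in T1 replicate 1 and T2 replicate 3; the cytoplasmic ribosomal proteins, at a median percentile of 99.6, hardly vary on any array.

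Leaving these arrays out turned the sign of the canonical medians. Without T1 replicate 1 the median change from T1 to T10 was -0.05, with 11 genes above 0 and 15 below. The median change from T1 to T2 was 0.03 with all arrays and 0.12 without T2 replicate 3, when 25 of 26 genes were above 0, but -0.06 without T1 replicate 1, when 21 were below 0. Against T2 the T10 median was 0.01 with all arrays and -0.06 without T2 replicate 3, with 5 genes above 0 and 20 below. In each of these fits limma called 0 of 40 members. Without T2 replicate 3 it called 7.62% of all probe sets in T10 against T1, 7.46% in T10 against T2 and 0.00533% in T2 against T1, and without T1 replicate 1 it called 0.0107% both in T10 against T1 and in T2 against T1.

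The other pairs of rounds gave no call with all arrays either. In T10 against T2, 0 of 40 members and 0% of all probe sets passed (limma, 9 arrays), and 2 members, Prosbeta2R1 and Rpt3R, had an unadjusted p under 0.05, against 17% of all probe sets. Canonical changes ran from -0.15 (Rpn11) to 0.15 (Prosbeta7), with 95% intervals between -0.51 and 0.56. In T2 against T1, 0 of 40 members passed against 0.00533% of all probe sets (1 of 18769), and at an unadjusted p under 0.05 it was 0 of 40 against 6.16%. Canonical changes ran from -0.23 (Prosbeta4) to 0.22 (Rpn3), with intervals between -0.57 and 0.70. The T10 arrays serve in 2 of these 3 comparisons, as do the T1 and the T2 arrays, so the values are not independent.

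The groups could also be compared by the overlap of their arrays. In T10 against T1, 4 of 40 members had no overlap between the 3 arrays of each round, where 28.1% of all probe sets had none. These were Rpn13R (higher in T10) and Rpn11, Rpn6 and Rpt4R (lower in T10). Among all probe sets, 12.9% lay wholly above and 15.1% wholly below. In T10 against T2 it was 1 of 40, Rpn13R, against 21.3%, and in T2 against T1 0 of 40 against 9.43%.

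Core and regulatory particle were compared by the difference of their median changes. The 12 core subunits had a median change from T1 to T10 of 0.05 and the 14 regulatory subunits one of -0.0067, a difference of 0.06. By subcomplex the median was 0.08 in the alpha ring (6 genes), 0.05 in the beta ring (6), -0.02 in the base ATPases (4), -0.02 in the other base subunits (3) and 0.08 in the lid (7). On single arrays the core median minus the regulatory median was 0.11, -0.09 and -0.03 in T1, -0.07, -0.06 and -0.01 in T2, and 0.01, 0.06 and 0.06 in T10 replicates 1 to 3. The T10 arrays lay above the T2 arrays and inside the range of the T1 arrays. The pooled SD of single arrays within rounds was 0.0635, which is not the error of a difference between rounds. The difference of 0.06 was not tested. The difference was 0.04 in T10 against T2, or 0.11 without T2 replicate 3, and -0.02 in T2 against T1, where leaving out 1 array gave -0.057 (without T1 replicate 2) to 0.041 (without T1 replicate 1). Without T1 replicate 2 the T10 against T1 value was -0.03 and without T1 replicate 1 it was 0.13, so its sign and size rested on single T1 arrays.

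The paralogs varied one by one. In flies several such copies, Prosalpha3T and Prosalpha6T among them, are known from the male germ line, where they replace the canonical subunit. Of the 14 paralogs, 10 belong to the core and 4 to the regulatory particle. Testis markers (7 of 7 measured) averaged 4.61 to 4.71 in T1, 4.85 to 5 in T2 and 4.54 to 4.81 in T10 arrays. The members of this list differed. Below percentile 5 lay dj, Mst87F and aly, while bb8 lay at percentile 48.4 and sa at 58.6. The marker sa had 6.34, 6.35 and 7.04 in T1, 8.22, 8.39 and 8.33 in T2 and 6.68, 8.67 and 7.62 in T10. Every T2 array of sa thus lay above every T1 array, and bb8 lay between 6.07 and 7.26 on all 9 arrays. For 10 of the paralogs the values ranged over 0.19 to 0.51 log2 units across the 9 arrays, and 4 ranged over 1.40 to 3.89.

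Rpn13R, a copy of the ubiquitin receptor Rpn13, had log2 values of 5.48, 5.96 and 6.42 in T1, 6.40, 5.92 and 6.53 in T2 and 6.88, 6.83 and 6.58 in T10. All T10 arrays lay above all others, the nearest of which was T2 replicate 3. Its change from T1 to T10 was 0.81 (SE 0.255, 95% interval 0.22 to 1.40) with an unadjusted p of 0.0135 and an adjusted p of 0.135 (limma), and in T10 against T2 it was 0.48 (SE 0.255, adjusted p = 0.369), or 0.60 without T2 replicate 3 (adjusted p = 0.266). Rpn13 itself had 10.38, 10.87 and 10.87 in T1, 10.98, 10.86 and 10.51 in T2 and 10.98, 10.69 and 10.64 in T10, a change of 0.06 from T1 to T10 (SE 0.186). The difference between Rpn13R and Rpn13 was not tested.

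Prosbeta2R2, a copy of the trypsin-like subunit, had 7.23, 8.42 and 4.96 in T1, 5.25, 5.49 and 4.95 in T2 and 5.83, 4.88 and 4.53 in T10. Only T1 replicates 1 and 2 were high, and the third T1 array lay among the other rounds. The change of -1.79 from T1 to T10 (SE 0.790, adjusted p = 0.249, limma) was -1.01 without T1 replicate 2 and -2.75 without T1 replicate 3, where its adjusted p was 0.0449. In that fit limma called 1 of 40 members and 2.77% of all probe sets in either direction, or 1.87% of all as lower.

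Prosbeta5R1, a copy of the chymotrypsin-like subunit, had 5.58, 6.59 and 4.73 in T1, 4.93, 4.60 and 6.18 in T2 and 7.67, 5.59 and 5.61 in T10, with 1 high array in each round. Its change from T1 to T10 was 0.66 (SE 0.719, adjusted p = 0.658, limma), and -0.03 without T10 replicate 1. Rpt3R, a copy of the ATPase Rpt3 that was named after its values were seen, had 7.03, 7.53 and 6.81 in T1, 6.06, 6.96 and 6.29 in T2 and 8.24, 7.72 and 6.95 in T10. Its lowest T10 array and its highest T2 array lay side by side, at 6.95 and 6.96. The change from T2 to T10 was 1.20 (SE 0.371, unadjusted p = 0.0125, adjusted p = 0.218, limma), or 1.13 without T2 replicate 3 (adjusted p = 0.189). From T1 to T10 the change was 0.51 (SE 0.371, adjusted p = 0.481). Rpt3 had changes of -0.09 and -0.03 in the same comparisons.

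**Figure D4:**
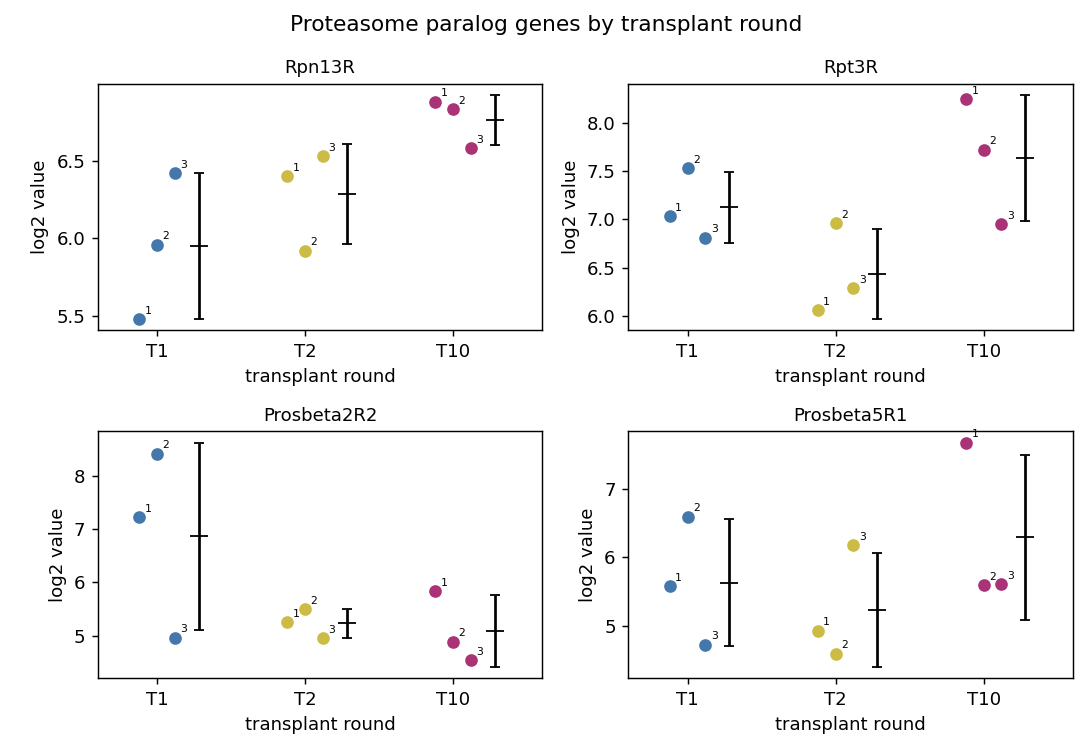
Log2 value (y axis) of the paralogs Rpn13R, Rpt3R, Prosbeta2R2 and Prosbeta5R1 in the 3 arrays of each transplant round (x axis), numbered by replicate, with mean and SD beside them. Rpn13R is highest in all 3 T10 arrays, Prosbeta2R2 is high only in T1 replicates 1 and 2, and Prosbeta5R1 is highest in T10 replicate 1.

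Genes that build, feed or control the proteasome were read from 6 lists. With all 9 arrays limma called none of the 50 measured genes in T10 against T1, against 0.0107% of all probe sets (2 of 18769). The list of assembly chaperones (7 of 12 entries measured) had a median change of -0.10, proteasome-bound factors (8 of 17) -0.02, shuttle receptors (6 of 8) 0.13, ubiquitin and its enzymes (10 of 17) -0.04, p97 and cofactors (9 of 14) -0.04, and CncC with its partners and targets (10 of 13) -0.30. Unmeasured entries include older names of measured genes.

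Pomp, the chaperone that drives the maturation of the beta ring, had 10.39, 10.22 and 10.41 in T1, 10.38, 10.58 and 10.77 in T2 and 11.04, 11.07 and 10.95 in T10. The T10 arrays lay above all others. The change from T1 to T10 was 0.68 (SE 0.118, 95% interval 0.41 to 0.95), or 0.44 from T2 (SE 0.118), with adjusted p-values of 0.0831 and 0.197 in the 9-array fit (limma). It passed in T10 against T1 when only those rounds were fitted (adjusted p = 0.0212), and without T2 replicate 3 in both comparisons (adjusted p = 0.0126 and 0.0351), but had an adjusted p of 0.256 against T1 without T1 replicate 1, where the change was 0.71. It also passed against T1 without T1 replicate 3 (adjusted p = 0.0495, limma). Of all probe sets, limma called 5.98% with only those rounds fitted, and 7.62% (against T1) and 7.46% (against T2) without T2 replicate 3. Against T1 it called 2.77% without T1 replicate 3 and 0.0107% without T1 replicate 1. No canonical beta ring subunit had a change from T1 to T10 above 0.22.

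Gclm, the modifier subunit of glutamate-cysteine ligase and a known target of CncC, had 10.68, 10.61 and 9.13 in T1, 10.05, 10.16 and 9.33 in T2 and 7.91, 7.62 and 8.26 in T10. Its T10 arrays lay below all others. The change from T1 to T10 was -2.21 (SE 0.434, 95% interval -3.22 to -1.20, adjusted p = 0.0866 in the 9-array fit), and it passed when only those rounds were fitted (adjusted p = 0.0471, limma) but not without T1 replicate 1 (adjusted p = 0.267). It passed as well without T2 replicate 3, against T1 and against T2 (adjusted p = 0.0251 and 0.0364, limma), and against T1 without T1 replicate 3 (adjusted p = 0.0284). The shares of all probe sets called in these fits are those given for Pomp. Its catalytic partner Gclc had a change of -0.52 (SE 0.469, adjusted p = 0.582) and another detoxification target, GstD1, one of 0.29 (SE 0.137, adjusted p = 0.28). The changes of Gclm, Gclc and GstD1 differed in sign, and none of them passed in the 9-array fit. Whether the targets on the list share a direction was not tested. The gene cnc itself had a change of -0.23 (SE 0.102, adjusted p = 0.25), with 10.78, 10.67 and 10.64 in T1, 10.74, 10.71 and 10.53 in T2 and 10.60, 10.39 and 10.41 in T10. Pngl, a peptide N-glycanase whose worm and mammalian counterparts activate the CncC-related factor, had a change of -0.40 (SE 0.129, adjusted p = 0.141), and every T10 array lay below every T1 and T2 array. Its values were 10.75, 10.87 and 10.99 in T1, 11.05, 10.93 and 10.65 in T2 and 10.57, 10.36 and 10.48 in T10. Against T2 it passed without T2 replicate 3, with a change of -0.52 (adjusted p = 0.0455, limma), in a fit that called 7.46% of all probe sets.

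The remaining genes named from the lists were likewise short of the threshold with all arrays, and the adjusted p-values that follow are for T10 against T1 (limma, 9 arrays). Of the shuttle receptors, casp, the fly counterpart of FAF1, had 10.98, 11.26 and 11.02 in T1, 10.92, 11.05 and 10.70 in T2 and 10.53, 10.63 and 10.70 in T10, a change from T1 to T10 of -0.47 (SE 0.124, adjusted p = 0.105). The Ddi1 counterpart rngo had 10.63, 10.71 and 10.72 in T1, 10.81, 10.84 and 10.87 in T2 and 10.89, 10.93 and 10.97 in T10, a change of 0.24 (SE 0.0761, adjusted p = 0.134). For casp every T10 array lay below every T1 array, and for rngo every T10 array lay above all others. The p62 counterpart ref(2)P, a receptor of selective autophagy, had 12.82, 12.90 and 12.37 in T1, 12.67, 12.51 and 11.76 in T2 and 12.61, 11.94 and 11.83 in T10, with overlap and a change of -0.57 (SE 0.300, adjusted p = 0.327).

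The polyubiquitin gene Ubi-p63E had 12.98, 13.02 and 12.66 in T1, 12.70, 12.69 and 12.37 in T2 and 12.58, 12.50 and 12.43 in T10, a change of -0.38 (SE 0.136, adjusted p = 0.17). The polyubiquitin gene Ubi-p5E had 11.88, 11.67 and 11.46 in T1, 11.53, 11.53 and 10.88 in T2 and 11.33, 11.19 and 10.97 in T10, a change of -0.51 (SE 0.206, adjusted p = 0.215). For both, every T10 array lay below every T1 array, and T2 replicate 3 was the lowest of the 9. The ubiquitin-conjugating enzyme vih had 10.98, 11.00 and 10.89 in T1, 10.97, 10.69 and 11.05 in T2 and 10.93, 11.30 and 11.13 in T10, with overlap and a change of 0.16 (SE 0.132, adjusted p = 0.535).

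Of the p97 list, Der-2, a derlin of endoplasmic reticulum-associated degradation, had 10.47, 10.70 and 10.51 in T1, 10.53, 10.61 and 10.18 in T2 and 9.87, 9.84 and 10.38 in T10, a change of -0.53 (SE 0.180, adjusted p = 0.155). With all arrays numbered 3 left out it passed in T10 against T1 (-0.73, adjusted p = 0.0404, limma) and against T2 (-0.71, adjusted p = 0.0449). That fit drops T10 replicate 3, at 10.38 the T10 array nearest the T1 values. Leaving out single arrays did not make Der-2 pass. The share of all probe sets called in that fit is not given here. The ubiquitin ligase sip3, the Hrd1 counterpart of the same pathway, had 10.11, 10.34 and 10.44 in T1, 10.52, 10.27 and 9.97 in T2 and 10.02, 9.80 and 10.06 in T10, a change of -0.34 (SE 0.162, adjusted p = 0.286). Both had every T10 array below every T1 array. Plap, the counterpart of the p97 cofactor PLAA, had 9.68, 10.08 and 10.40 in T1, 10.25, 10.37 and 10.11 in T2 and 10.45, 10.24 and 10.13 in T10, a change of 0.22 (SE 0.186, adjusted p = 0.556), or 0.03 without T1 replicate 1.

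Uch-L5, the deubiquitinase that docks on Rpn13, had 9.41, 9.41 and 9.52 in T1, 9.52, 9.25 and 9.48 in T2 and 9.64, 9.60 and 9.75 in T10, a change of 0.22 from T1 with the T10 arrays above all others (SE 0.102, adjusted p = 0.275). CG12795, from the same list of proteasome-bound factors, had 10.34, 10.69 and 9.89 in T1, 10.06, 10.74 and 9.26 in T2 and 9.58, 9.22 and 9.11 in T10, with a T10 mean of 9.30 against a T1 mean of 10.31 (adjusted p = 0.182) and no overlap between those rounds. Akirin, whose mammalian counterpart takes part in the nuclear import of proteasomes, had 11.18, 11.15 and 11.15 in T1, 11.22, 11.03 and 11.10 in T2 and 11.27, 11.35 and 11.16 in T10, with overlap and a change of 0.10 for akirin (SE 0.0902, adjusted p = 0.585). From the list of assembly chaperones, the F-box protein gene ntc had 6.56, 6.44 and 6.37 in T1, 6.12, 6.32 and 5.86 in T2 and 6.36, 6.13 and 5.99 in T10, a change of -0.30 with every T10 array below every T1 array (SE 0.147, adjusted p = 0.299). CG12321 had 9.26, 9.48 and 9.37 in T1, 9.49, 9.44 and 9.26 in T2 and 9.37, 9.28 and 9.15 in T10, with overlap and a change of -0.10 (SE 0.108, adjusted p = 0.642).

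**Figure D5:**
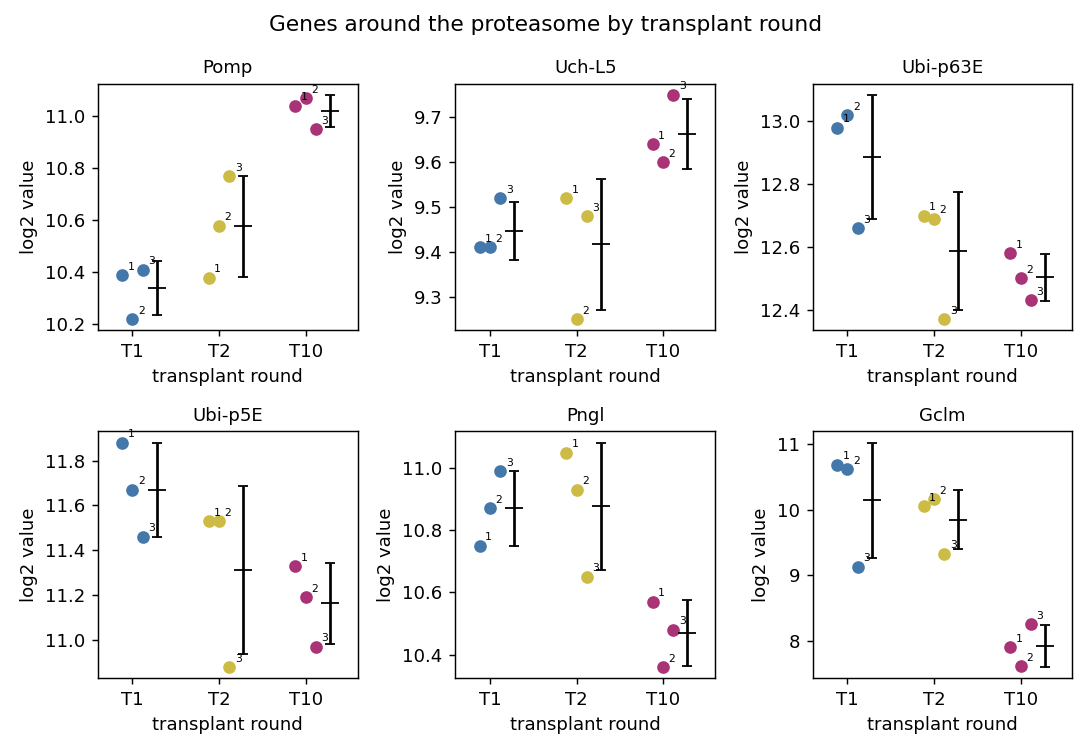
Log2 value (y axis, scaled to each gene) of 6 genes around the proteasome in the 3 arrays of each transplant round (x axis), numbered by replicate, with mean and SD beside them. Pomp and Uch-L5 are highest in all 3 T10 arrays and Gclm and Pngl lowest, while the polyubiquitin genes overlap between T2 and T10.

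Other large complexes can be set beside these values. The median change from T1 to T10 was -0.01 for cytoplasmic ribosomal proteins (41 genes, with the narrow range given above), -0.02 for mitochondrial ribosomal proteins (69) and -0.27 for the vacuolar proton ATPase (31), against 0.05 for the canonical proteasome subunits. Of the vacuolar ATPase genes 17 of 31 had no overlap between T10 and T1 arrays, 15 of them lower in T10, against 2 of 26 canonical proteasome subunits, both lower. These sets are unlike in makeup and brightness. The vacuolar ATPase genes were taken by name, dim ones included, at percentiles 4.26 to 99 (median 48.2). The canonical subunits leave out the paralogs and lay at 88.1 to 99.2 (median 95). Over all probe sets the share was 28.1% in either direction and 15.1% lower. Limma called no gene of these 3 families in T10 against T1 in the 9-array fit, which called 0.0107% of all probe sets. The differences between the families were not tested.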

How the data were processed

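Per the labels, tumor RNA was bead-purified and amplified before labelling, which can compress differences and move arrays as a whole. The authors deposited 1 log2 value per probe set and array, summarised with RMA (affy package; the labels list no versions), rounded to 2 decimals. Array medians were 6.47 to 6.71. An array has no read depth, so 3 arrays a round limit the precision. Of 18952 probe sets, 183 controls were left out; 13646 of the 18769 tested had 1 gene symbol from GEO's platform annotation (13543 matched to RefSeq by Entrez identifier), 402 several and 4721 none. The values were not normalized again.

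limma 3.58.1 in R 4.3.3 (lmFit, eBayes) was fitted on all 9 arrays, with Benjamini-Hochberg adjustment over 18769 probe sets and a threshold of 0.05. The code was also run on simulated data with independent noise. Its planted changes were larger than any canonical change here, so that run does not bear on changes of this size. The members, lists and naming rule were chosen with earlier results of these data known. Per-array values are given for the 5 largest changes each way among canonical subunits in T10 against T1. They are also given for the 3 largest each way in the other comparisons, the smallest changes and the enzymes. The 3 paralogs with the largest change and the 3 genes of each list with the smallest p, both in T10 against T1, were added. Dl, nos and dys were matched to current symbols by hand. Promoter and protein comparisons that were planned were not run.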

Additional observations from a re-analysis of the deposited data

How the results depend on the processing

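The count of members called stayed at 0 in all 3 comparisons under every alternative run but 1. The exception was T10 against T1 without T1 replicate 3, where 1 gene, Prosbeta2R2, was called lower (range 0 to 1), beside 2.77% of all probe sets. The runs included a fit of only the 2 rounds compared, array weights, a trended and robust prior and a filter on dim probe sets. They also included 2 rescalings, a floor, an adjusted p under 0.1 and canonical subunits only. For the weights, prior, filter, rescalings, floor, 0.1 threshold and blocks, the share of all probe sets called is not given here. A count of 0 in those runs is therefore no result about the members. With replicate numbers as a block, fixed or random, the count was 0 and the canonical medians were 0.05, 0.01 and 0.03 in T10 against T1, T10 against T2 and T2 against T1. The labels do not say that a number marks 1 metastasis, and residuals of same-numbered arrays correlated at -0.28 to 0.19, so numbers were not treated as pairs. Leaving out 1 array gave canonical medians of -0.046 to 0.11, -0.055 to 0.095 and -0.062 to 0.12 in the same order, and leaving out 1 replicate number gave -0.105 to 0.11, -0.06 to 0.045 and -0.12 to 0.14. The core minus regulatory difference was -0.026 to 0.13, 0.038 to 0.11 and -0.057 to 0.041 without 1 array and -0.0075 to 0.16, 0.045 to 0.083 and -0.045 to 0.048 without 1 number. Each gene had 1 probe set, so the choice between probe sets of a gene was not run. With 3 arrays a round, canonical changes of the size their intervals span cannot be told from 0.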
